A study of Drosophila melanogaster with 3 samples.

Results

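The regions described here are calls for the transcription factor Atf3 in Drosophila melanogaster embryos, directly below the deposited list of thresholded peaks. They were chosen by their signal value in the list made from the 3 replicates pooled. All 27754 calls of that list were ranked by signal, highest first. Its first calls, about 2900, are exactly the list deposited after the authors' cut on the irreproducible discovery rate (IDR), called the IDR peaks. That rate concerns the repeatability of ranks between replicates. Since the IDR peaks are also the first calls by pooled signal, a single one need not be found in every replicate. The set of equal size directly after the IDR peaks, up to about rank 5800, is called the members and makes up 10.4% of the pooled calls. The equal set after that, up to about rank 8700, is called the next set. The study profiled whole embryos of strain A3-3-GFP, mixed sex and 0 to 24 h old, which carry Atf3 with a C-terminal eGFP tag. Chromatin was sonicated to fragments of 200 to 800 bp and precipitated in 3 biological replicates of 1 group with no treatment. The sample descriptions name an antibody against GFP, while another label gives the target of the antibody as Atf3, so whether untagged Atf3 was also precipitated is unsure. Binding is an average over all embryonic tissues and ages, and binding in few cells cannot be told apart from weak binding in many. The files hold no expression values, so the embryo label could not be checked against marker genes.

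Atf3 is a basic leucine zipper (bZIP) protein of the ATF/CREB family, whose members bind as dimers. The classical site of the family is the cyclic AMP response element (CRE) palindrome, while Jun and Fos dimers prefer the related AP-1 site. In flies Atf3 can pair with Jun, and it has roles in immune and metabolic balance and in epithelia. Many housekeeping promoters of the fly carry a different palindrome, the DNA replication-related element (DRE), which is bound by DREF and not by bZIP proteins.

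Of the 12 members of highest signal that hold the CRE palindrome, 7 are shown so that its setting can be read directly. Each is the plus strand of the RefSeq Release 6 genome (dm6), 61 bp centred near the match, with TGACGTCA in capitals.

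EndoGI, promoter, 2L:16258357-16258417: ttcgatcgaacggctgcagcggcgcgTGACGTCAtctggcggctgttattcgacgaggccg
lbl, promoter, 3R:21434213-21434273: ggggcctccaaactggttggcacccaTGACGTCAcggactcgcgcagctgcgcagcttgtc
Usp32, intron, 3L:19871730-19871790: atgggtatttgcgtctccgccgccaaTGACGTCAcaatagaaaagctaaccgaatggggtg
asRNA:CR46093, promoter, 3R:24320181-24320241: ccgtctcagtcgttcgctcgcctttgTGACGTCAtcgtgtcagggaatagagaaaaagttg
Tep4, promoter, 2L:19548372-19548432: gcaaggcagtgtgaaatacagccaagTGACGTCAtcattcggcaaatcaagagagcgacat
lncRNA:CR45540, promoter, X:9581860-9581920: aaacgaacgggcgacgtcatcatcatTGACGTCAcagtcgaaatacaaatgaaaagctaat
Ddc, intergenic, 2L:19120913-19120973: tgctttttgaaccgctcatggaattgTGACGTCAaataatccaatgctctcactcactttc

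The next sequences show the DRE palindrome, TATCGATA in capitals, in the 3 members of highest signal that hold it, all at promoters. They are given for contrast with the CRE, because both palindromes recur at member summits.

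Cdc50, promoter, X:16441304-16441364: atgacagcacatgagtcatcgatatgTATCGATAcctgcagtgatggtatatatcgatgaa
Abl, promoter, 3L:16647910-16647970: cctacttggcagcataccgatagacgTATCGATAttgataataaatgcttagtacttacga
Atxn7, promoter, 2L:2375799-2375859: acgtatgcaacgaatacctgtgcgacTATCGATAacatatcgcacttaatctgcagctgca

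Of the 15 members of highest signal, 1 held a CRE and 1 a DRE. The first 3 with neither are shown with the summit base in capitals.

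CG6333, intron, 3L:17485593-17485653: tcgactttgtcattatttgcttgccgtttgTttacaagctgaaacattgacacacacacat
Bacc, intron, 2L:2754633-2754693: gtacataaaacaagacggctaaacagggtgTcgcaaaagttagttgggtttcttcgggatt
Snoo, intron, 2L:7957075-7957135: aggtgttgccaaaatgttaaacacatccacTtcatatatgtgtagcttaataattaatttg

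The line between members and IDR peaks fell inside a continuous run of signal values. The last 2 IDR peaks both had a signal of 79.80 and lay at the promoters of HP1b, a heterochromatin protein 1 family gene, and Pp2A-29B, the scaffold subunit of a protein phosphatase. The first 2 members had 79.79 and 79.78 and lay in an intron of CG6333 and at the promoter of Ehbp1. At the lower end the last members had a signal of 50.76, at introns of Drak and sens-2, and the calls after them had 50.75 and 50.74. Member signal thus ran from 50.8 to 79.8 with a median of 61.0, against 79.8 to 1627 with a median of 122 in IDR peaks. The deposited −log10 q of the members had a median of 1.59 and ran from 0.91 to 2.72, and 1900 members (65.6%) had a q of at most 0.05, against 100% of IDR peaks, 0% of the next set and 17.3% of all pooled calls. These shares follow from the ranking that chose the members. The members were 400 bp wide in 2894 cases and of another width in 2, so width did not separate them from one another.

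Under the overlap rule used here most members were found in every replicate, but seldom at a high rank in all of them. A call counted as found when at least 50% of the shorter interval overlapped a call of that replicate's list, which held 30000 calls including background. The pooled list was made from these replicates, so the counts describe the members and support nothing. Of the members, 1786 (61.7%, 95% Wilson interval 59.9% to 63.4%, counting error only) were found in all 3 lists, against 94.9% of IDR peaks and 31.2% of the next set. The background was 22.9% of all pooled calls. A further 948 members were found in exactly 2 lists and 162 in exactly 1. The share in all 3 lists was below 50% under stricter rules, at 41.4% when summits had to lie within 100 bp and 23.6% within the first 10000 calls of each list. Over 4 bins of equal size along the pooled ranks, the share in all 3 lists was 78.2%, 63.4%, 56.9% and 48.2%, from high to low signal.

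**Figure D1:**
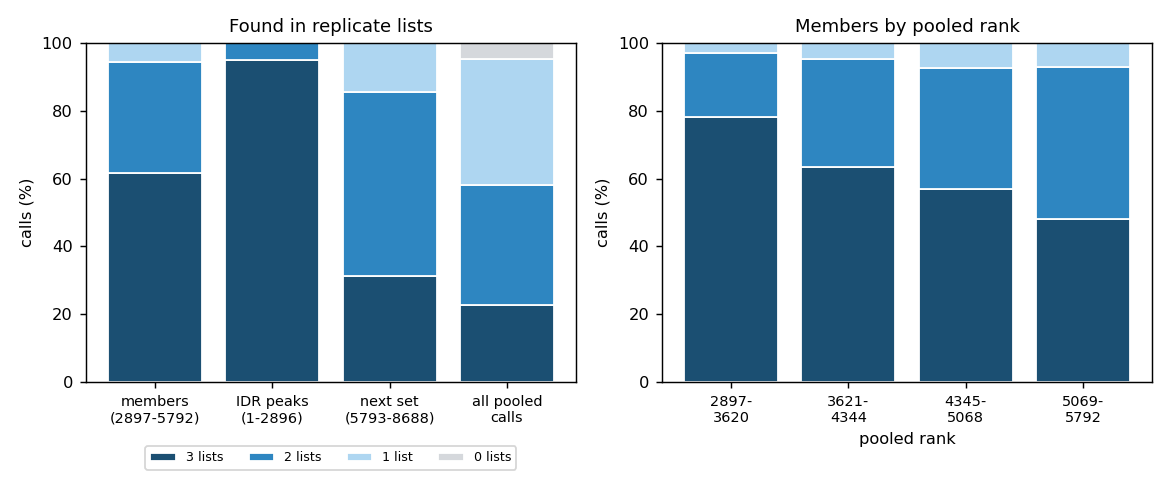
Share of calls (%) found in 3, 2, 1 or 0 replicate lists, by set on the left and by 4 bins of the members' pooled ranks on the right. Members stand between IDR peaks and the next set, at 61.7% in all 3 lists, and the share is 48.2% in their last bin.

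The replicates did not contribute alike. Replicate 1 held 95.4% of the members, replicate 2 held 79.7% and replicate 3 held 81.0%. This was not particular to the members. Of the next set, replicates 1, 2 and 3 held 2459, 1831 and 1983 calls, and of the IDR peaks 2877, 2815 and 2839. Of the 162 members found once, 148 were in replicate 1, 5 in replicate 2 and 9 in replicate 3. The median rank of a found member was 5167, 4922 and 5393 in replicates 1, 2 and 3, against 1485, 1401 and 1418 for IDR peaks. Among members found in all 3 lists the worst rank was a median of 3.64 times the best, against 2.35 times in IDR peaks. In all 3 replicates at once, 193 members (6.66%) ranked within the first 5800 or so calls, the depth to which the members reach in the pooled list, against 79.9% of IDR peaks, 0.691% of the next set and 9.23% of all pooled calls.

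The members that ranked high in every replicate all lay beside an IDR peak. Single replicates placed 535, 542 and 466 members among as many of their own first calls as there are IDR peaks, in replicates 1, 2 and 3, and 26 members (0.898%) reached that top layer in all 3. The first quartile of the rank of found members was 3300, 2996 and 3218 in replicates 1, 2 and 3. It was 709, 679 and 693 for IDR peaks and 5679, 5208 and 5169 for the next set. Each of those 26 summits lay within 500 bp of an IDR summit, and each had a best replicate match that also matched an IDR peak. In all, 145 members shared a match in this way in at least 1 replicate. When replicate calls that matched an IDR peak were left out, 0 members were in the top layer of all 3 replicates, and 58.4% were still found in all 3 lists. The closest member lay 199 bp from an IDR summit, 152 member intervals overlapped an IDR interval, and 308 members (10.6%) had an IDR summit within 1 kb, against 12.7% of IDR peaks with another one, 8.70% of the next set and 6.20% of all pooled calls.

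The 10 members with the best worst rank were all of this kind, at 199 to 205 bp from an IDR summit. The best was a call in an intron, nearest to CG12769, with a pooled rank of 5691. It matched calls of rank 165, 151 and 95 in replicates 1, 2 and 3, with an IDR summit 204 bp away. The member at the promoter of RanGAP, the activator of the Ran GTPase in nuclear transport, matched ranks 230, 103 and 1365. That in an intron near tou, a chromatin remodelling gene, matched 1375, 742 and 294. The others were nearest to CG1309, CG32137, CHES-1-like, a forkhead gene, Rtnl1, a reticulon of the endoplasmic reticulum, CG9328, Acsf2 and CG8067.

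The opposite extreme was a member strong in some replicates and near the end of the list in another. The member at the promoter of CG32280 ranked 1392, 29619 and 12110 in replicates 1, 2 and 3. That at the promoter of csw, the fly SHP2 phosphatase of receptor tyrosine kinase signalling, ranked 5505, 1871 and 29576. The intronic member near Cdc14, a mitotic phosphatase gene, ranked 2015, 29653 and 3511. The replicate that ranked the member worst was thus not the same one in each case.

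The members of highest signal showed the same unevenness. The first, in the CG6333 intron, ranked 1806 in replicate 1 and 1709 in replicate 3 and was not found in replicate 2. The Ehbp1 promoter member ranked 1089 and 28066 in replicates 1 and 2 and was not found in replicate 3. RpL29, a ribosomal protein gene, had a member that ranked 1308 and 2177 in replicates 1 and 3 and was also absent from replicate 2. Even ranks were seen at the shared promoter of Cdc50, a subunit of a lipid flippase, and rngo, where the member ranked 3002, 3594 and 4390. The promoter of TH1, a subunit of the negative elongation factor, and mei-41, the fly ATR kinase, had ranks of 8258, 1207 and 4184. Upstream of zld, the gene for the early genome activator Zelda, an intergenic member 1584 bp from the start site ranked 3426, 8390 and 2968. The remaining members of the first 15 were nearest to Bacc, Snoo, a Ski family gene, CG1722, CG31643, CG4161, rept, an AAA+ ATPase, 18w, a Toll family receptor, CG5541 and CG13192.

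With a window of 500 bp, promoters were the most frequent location of the members; with 250 bp introns came first, at 39.8% against 34.8% for promoters. A summit within 500 bp of a transcription start site (TSS) was found for 1270 members (43.9%, interval 42.1% to 45.7%), against 53.8% of IDR peaks and 31.2% of the next set, with 27.0% of all pooled calls as background. Introns held 1039 members (35.9%) and intergenic sequence 416 (14.4%), against 32.1% and 12.1% of IDR peaks. Coding sequence outside promoters held 97 members (3.35%), against 0.311% of IDR peaks and 14.4% of the next set, and 17.9% of all pooled calls lay there. Small numbers fell in 5′ UTRs (22), 3′ UTRs (27) and non-coding exons (25). Position followed rank within the members too: the promoter share was 47.9%, 48.9%, 40.6% and 38.0% over the same 4 bins. The coding share was 1.24%, 1.93%, 3.87% and 6.35% in the same order.

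**Figure D2:**
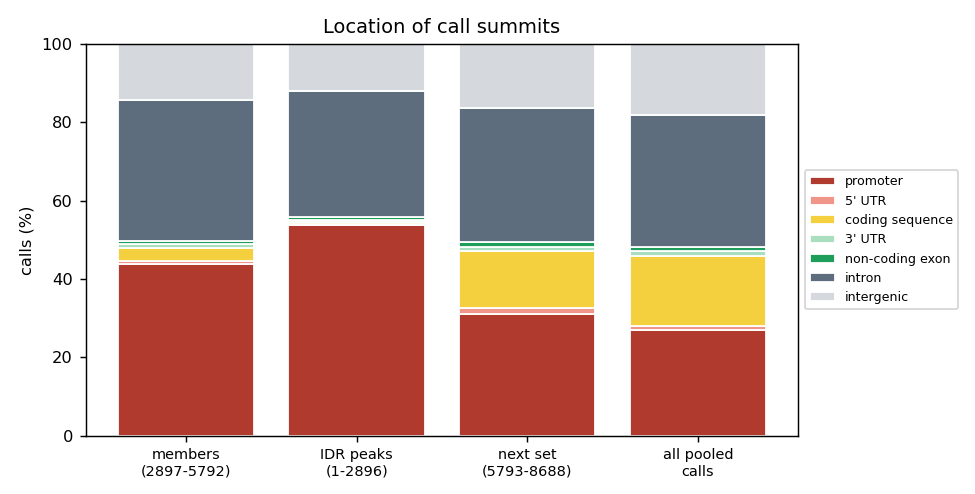
Share of call summits (%) in each of 7 location classes for the members, the IDR peaks, the next set and all pooled calls. Promoters hold 43.9% of members and coding sequence 3.35%, both between the IDR peaks and the next set.

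Promoter members lay more often upstream than downstream of the start site. Of the 1270, 68.4% were upstream of the nearest TSS and 31.4% downstream, against 80.0% upstream for promoter IDR peaks, 56.1% in the next set and 57.9% over all pooled calls. The median distance was 102 bp regardless of side, and the median position was 47 bp upstream. A protein-coding TSS was within 500 bp for 1184 members, and 30.5% of these had start sites of 2 or more protein-coding genes in the window, against 40.6% of such IDR peaks. Outside promoters the median distance to a TSS was 2626 bp, and 505 members (31.1% of those 1626) were more than 5 kb away. GC content in the 100 bp to either side of the summit averaged 40.6% ± 8.69 (SD over calls) in members, 37.8% in IDR peaks and 45.2% in the next set. The coding members stood apart at 59.8% ± 5.92, against 40.9% for promoter and 39.1% for intronic members; the part of base composition in the coding share was not tested.

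The large chromosome arms held members at similar densities, from 20.5 per Mb on X to 23.1 per Mb on 2L. Arm 4 held 6 members, or 4.45 per Mb. Start sites of the 290 tRNA genes were within 500 bp of 8 members, against 10 IDR peaks and 5 calls of the next set. For the 269 small nucleolar RNA genes the counts were 6 members, 12 IDR peaks and 3 of the next set. For the 32 small nuclear RNA genes they were 1 member, 8 IDR peaks and 0 of the next set. Counted by gene, 11 tRNA genes, 8 small nucleolar RNA genes and 1 small nuclear RNA gene had a member in the window. Beside them, 1471 of 13945 protein-coding genes had one.

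Replicates allowed 1 test that did not use the pooled ranks. Each replicate's own list was cut into layers at the same ranks: a top layer as large as the IDR list, a second layer as large as the members, and a last layer as large as the next set. The second layers are not the members, but their counterpart in each replicate. Promoter shares were 48.2%, 32.4% and 28.8% in the second layer of replicates 1, 2 and 3, against 54.1%, 54.8% and 49.0% in the top layer. The layers did not overlap, with means of 36.5% ± 10.3 and 52.6% ± 3.17 (SD, n = 3; two-sided exact permutation p = 0.10, adjusted p = 0.13). With 3 replicates that test cannot go below 0.10, so no difference here could pass 0.05. It also ignores that both layers come from the same 3 lists. Paired by replicate, the exact sign-flip p was 0.25 for promoter and for coding shares, the smallest that 3 pairs can give. Coding shares were 3.07%, 11.7% and 16.3%, against 0.311%, 0.449% and 1.97%. They did not overlap either, at 10.4% ± 6.71 and 0.909% ± 0.920 (SD, n = 3; exact permutation p = 0.10, adjusted p = 0.13). Replicate 1 kept more promoter and fewer coding calls in its second layer than replicates 2 and 3. Against the last layer the promoter share was higher and the coding share lower in every replicate, but the layers overlapped (exact permutation p = 0.30 for each, adjusted p = 0.40, n = 3).

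**Figure D3:**
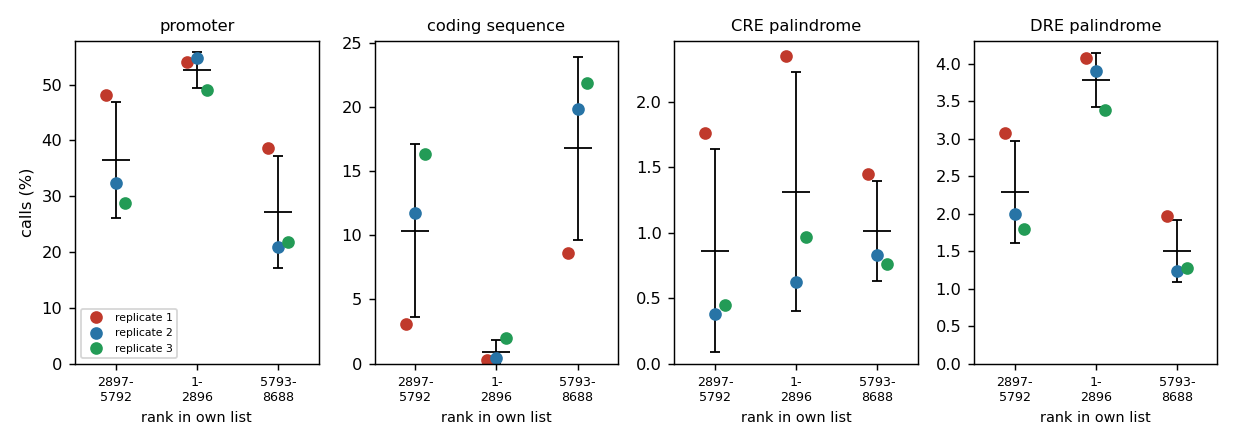
Share of calls (%) at promoters, in coding sequence, with a CRE and with a DRE palindrome, by rank layer within each replicate's own list. Points are the 3 replicates and black bars the mean ± SD; the second layer (left) lies below the top layer for promoters and DRE and above it for coding sequence, and replicate 1 has the most CRE calls in each layer.

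The CRE palindrome was in similar shares of members and IDR peaks, with overlapping intervals. TGACGTCA was searched on both strands in the 100 bp to either side of each summit, and it contains the shorter CRE core TGACGT. It was found in 42 members (1.45%, interval 1.07% to 1.95%), against 1.52% (1.13% to 2.03%) of IDR peaks and 1.10% of the next set, with 0.811% of all pooled calls as background. Windows of the same length 600 bp to either side of the members held it in 0.242%, and windows at all TSSs in 0.257%. Its counts showed no steady course along the ranks, with 8, 11, 15 and 8 members over the 4 bins. It did not keep to promoters: 18 of the 42 were at promoters (1.42% of promoter members), 18 in introns (1.73%), 4 in intergenic and 2 in coding sequence. Of the 95 matches within 400 bp of a member summit, 44 lay within 100 bp.

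CRE members ranked best in replicate 1. All 42 CRE members were found in replicate 1, 24 (57.1%) in replicate 2 and 27 (64.3%) in replicate 3, and 9 were found in replicate 1 alone. Their median rank was 2938 in replicate 1, 8405 in replicate 2 and 11948 in replicate 3, against 5202, 4854 and 5382 for members without the palindrome. In replicate 1, 21 of the 42 were in the top layer, against 1 in replicate 2 and 4 in replicate 3. The pooled signal that chose the members came from these replicates, so shares by replicate describe the members and support nothing. Intervals give counting error only. The CRE share was 6.08% (interval 3.23% to 11.2%) of the 148 members found in replicate 1 alone and 1.01% (0.638% to 1.59%) of those found in all 3. Among the 1906 members found in both replicate 2 and replicate 3 it was 0.944%. The core TGACGT went the same way, at 16.2% of members found in replicate 1 alone and 4.93% of those found in all 3. The AP-1 site did too, at 6.08% and 2.24%, so this difference was not particular to the CRE. IDR peaks with a CRE were also ranked better by replicate 1, at a median of 843, against 2790 and 2201 in replicates 2 and 3. What sets replicate 1 apart was not tested.

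**Figure D4:**
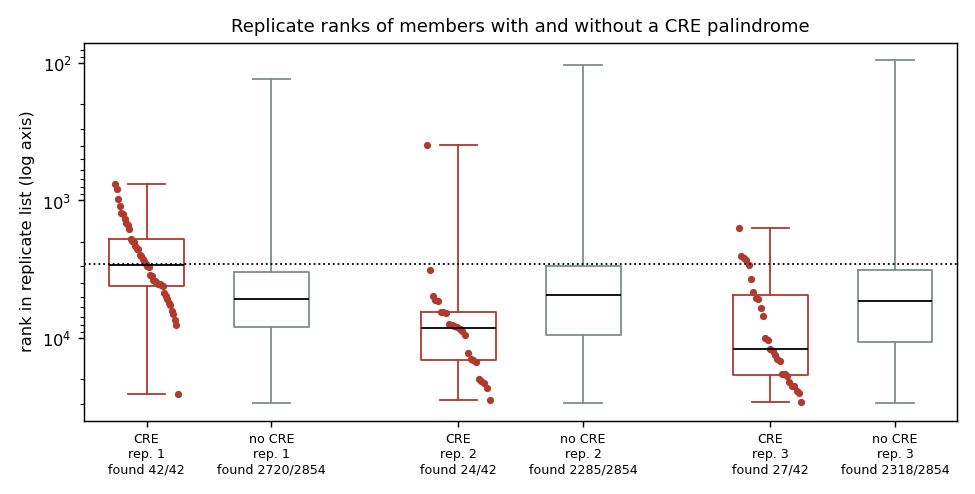
Rank in each replicate's list (log axis, best at the top) of the members that hold a CRE palindrome (red points and boxes) and of those without it (grey boxes; boxes span the quartiles and whiskers the full range). The dotted line marks the end of the top layer; 21 of 42 CRE members lie above it in replicate 1, against 1 in replicate 2 and 4 in replicate 3.

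The ranks of single CRE members are given as examples. EndoGI, which encodes an inhibitor of the nuclease EndoG, had its member 292 bp downstream of the TSS, with ranks of 1257, 20622 and 22481 in replicates 1, 2 and 3. The member at the promoter of Tep4, a thioester protein of the immune response, ranked 1503 in replicate 1 and was found in neither of the others. That of lncRNA:CR45540 ranked 1229 in replicate 1 and was likewise found nowhere else. The Spn42Da promoter, of a serpin gene, ranked 3797, 23014 and 11948. Less uneven were the promoter of lbl, the homeobox gene ladybird late, at 2885, 8155 and 3695, and the intron of Usp32, a ubiquitin protease gene, at 2770, 7989 and 2943. Upstream of Ddc, the dopa decarboxylase gene, the member ranked 2494 in replicate 1 and 6916 in replicate 3 and was not found in replicate 2. Of these 12, replicate 3 gave the best rank only at Lnpk, an endoplasmic reticulum shaping gene, with 2671, 14328 and 2527, and at asRNA:CR46093, with 7369 and 2632 in replicates 1 and 3. The other members of the named set of 12 were at Ehbp1, CG10737 and tRNA:Met-CAT-1-2.

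The DRE palindrome followed promoters instead. TATCGATA was found in 98 members (3.38%, interval 2.78% to 4.11%), against 4.39% of IDR peaks and 1.83% of the next set. The background was 1.56% of all pooled calls, 0.656% of the members' flanking windows and 5.47% of windows at all TSSs. Of the 98, 95 were at promoters, where the share was 7.48%. DRE members were found in replicates 1, 2 and 3 in 94.9%, 84.7% and 75.5% of cases, at median ranks of 4825, 3683 and 7194, and their share was 4.05% of members found in replicate 1 alone and 3.36% of those found in all 3. In the layers of each replicate's own list it was 2.29% ± 0.686 in the second layer and 3.79% ± 0.359 in the top layer, without overlap (SD, n = 3; exact permutation p = 0.10, adjusted p = 0.13). The CRE share in the same layers was 0.863% ± 0.778 and 1.31% ± 0.914 (SD, n = 3; exact permutation p = 0.50, adjusted p = 0.50). Within replicates the CRE share was lower in the second layer in 3 of 3, as the DRE share was, and the exact sign-flip p of 0.25 is the smallest that 3 pairs can give.

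**Figure D5:**
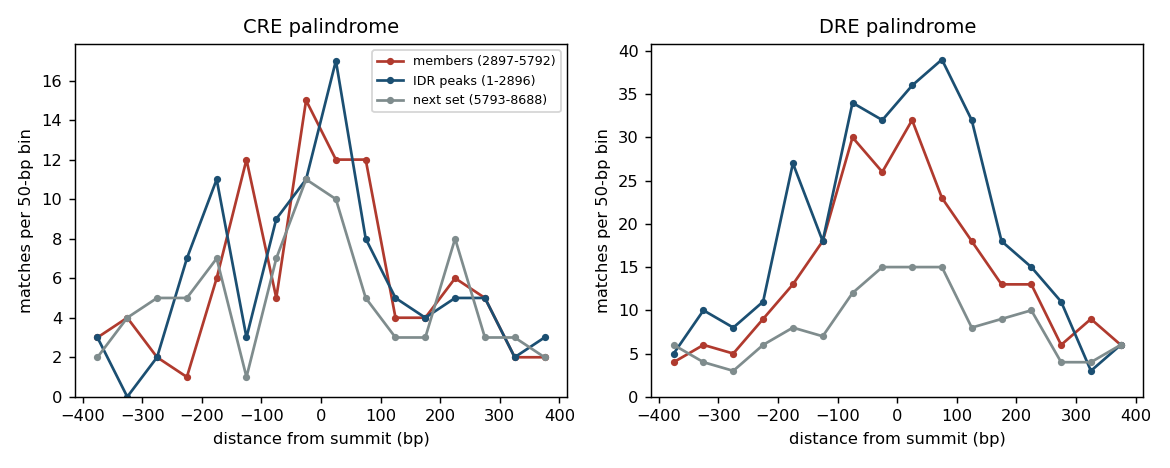
Number of CRE (left) and DRE (right) palindromes per 50-bp bin by distance from the call summit (bp) in the members, the IDR peaks and the next set. Both are most frequent near the summit in members, with 44 of 95 CRE matches and 111 of 231 DRE matches within 100 bp.

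The other elements searched differed in their place. The M1BP element GGTCACACT, a core promoter motif, was in 59 members (2.04%), against 1.97% of IDR peaks, 1.52% of the next set, 0.311% of the members' flanks (a ratio of 6.56, beside 6.00 for CRE and 5.16 for DRE) and 3.71% of all TSS windows. The AP-1 words TGACTCA and TGAGTCA, bound by Jun and Fos, were in 2.80% of members, against 2.45% of IDR peaks, 2.14% of flanks and 1.67% of TSS windows. The TATAAA word was in 27.5% of members, 19.2% of the next set, 21.4% of the members' flanks and 26.2% of TSS windows, and GAGAGAG was in 4.66% of members, 4.01% of flanks and 4.43% of TSS windows. The Zelda word CAGGTAG was in 1.04% of members (interval 0.727% to 1.47%), a ratio of 0.690 to their flanks (interval 1.22% to 1.85%), and in 1.04% of TSS windows. The composite C/EBP-ATF word TGATGCAA was in 0.725% of members, 0.656% of flanks and 0.545% of TSS windows. Among members found in replicate 1 alone, GAGAGAG reached 11.5% (7.30% to 17.6%), against 3.70% (2.92% to 4.67%) of those found in all 3. The AP-1 words were in 6.08% (3.23% to 11.2%) and 2.24% (1.65% to 3.04%) of these groups. The M1BP element went the other way, at 1.35% and 1.79%.

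Genes whose best promoter call was a member numbered 1277 of 13945 protein-coding genes, or 9.16%. A further 194 had both a member and an IDR peak within 500 bp of a TSS, 1974 genes had an IDR peak, 3273 had a lower call at best and 7421 had none. The shares of 18 gene lists are read beside that 9.16%, and those with an IDR peak beside 14.2% of all protein-coding genes. Over the lists the share with a member ran from 4.35% (segmentation) to 30.8% (glycolysis), and no list was tested.

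Signalling genes contributed members at several levels of the same pathway. In the epidermal growth factor receptor and Ras list, 7 of 24 genes had a member as their best promoter call, against 6 with an IDR peak. The ligand gene vn and the ETS repressor gene aop both had members found in replicate 1 alone, at ranks 1614 and 1875. The kinase gene Raf had a member that ranked 5497 and 6268 in replicates 1 and 3 and was absent from replicate 2. The other genes were csw, cnk, dos and rho. In the Notch list 5 of 23 genes had a member: mam, a coactivator, neur and mib1, ubiquitin ligases of ligand endocytosis, kuz, the protease of the receptor, and Su(H), the DNA-binding factor. Ranks at neur were 2834, 22215 and 2987, and at mib1 2663, 21430 and 5335, so both were weak in replicate 2. Su(H) was found in replicates 2 and 3 only, at 3517 and 3037. The mam member was shared with its neighbour RN-tre. The gene Dl matched no symbol and is missing from the Notch list.

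Of the bone morphogenetic protein (Dpp) genes, 3 of 19 had a member: dlp, a glypican, shn, a zinc finger factor, and wit, a receptor. The dlp member had a signal of 79.1 and ranked 5723, 3158 and 2267. The insulin and Tor list had 4 of 20, at 14-3-3epsilon, Akt, Lnk and Rheb. The Akt member, whose window also held the start of Mhcl, ranked 8895, 5400 and 2532. The Hippo list had 1 of 18, the kinase gene wts, in a window shared with dj-1beta, with ranks of 8423, 13049 and 12457, and the Jun kinase list had 1 of 20, the upstream kinase gene wnd, with ranks of 8056, 8075 and 5284.

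The stress response list had 4 of 16 genes with a member, against 5 with an IDR peak. They included the genes of 2 kinases of the translation factor eIF2: Gcn2, which senses amino acid shortage, and PEK, which senses protein folding stress in the endoplasmic reticulum. Gcn2 shared its member with Ugt35D1, at ranks 2424 and 1994 in replicates 1 and 3, while PEK ranked 6454, 8085 and 21315. The translation factor gene eIF2A ranked 1323 and 5010 in replicates 1 and 3, and Pdi, a disulfide isomerase gene, ranked 5299, 3277 and 25615. Both promoters held a DRE.

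Housekeeping lists differed in how they divided between members and IDR peaks. Cytoplasmic ribosomal protein genes had 9 of 90 with a member and 57 with an IDR peak. The 9 were RpL29, RpS7, RpS19a, sta, RpL37A, RpL10, RpL39, RpL38 and RpS26. The RpS7 member, with a DRE, ranked 3441, 2736 and 1821, whereas RpS26 ranked 24623, 1699 and 17550. Glycolysis had 4 of 13 with a member, at Pglym78, PyK, Ald1 and Tpi, and 6 with an IDR peak. Proteasome genes had 4 of 32 in each set, and the members were at Rpn8, Rpn11, Prosalpha3 and Rpn9. Ranks at Rpn11, the deubiquitinase of the lid, were close together, at 3307, 3569 and 2959. Vacuolar ATPase genes had 2 of 19, Vha44 and VhaM9.7-b, and autophagy genes 4 of 23, Atg9, Atg4b, Atg7 and Atg14. Several of these windows were shared with the start of a neighbouring gene, such as Hmgs at Vha44 and Slik at Rpn8, so the call cannot be given to 1 gene.

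Among 5 lists of regulators of chromatin and development, the share of genes with a member ran from 4.35% (segmentation) to 17.6% (insulator). The share over all protein-coding genes was 9.16%. Polycomb and Trithorax genes had 4 of 29 with a member and 11 with an IDR peak. The members were at ph-d, a subunit of the Polycomb complex PRC1, pho, its DNA-binding recruiter, trx, a histone methyltransferase, and osa, a subunit of the Brahma remodeller. The pho member ranked 4986, 2545 and 5620. The insulator list had 3 of 17, at pita, SMC1 and M1BP. Ecdysone genes had 3 of 21, at the receptor gene EcR and the nuclear receptor genes ftz-f1 and Hr39, and EcR ranked 3903, 2710 and 4436. Hox genes had 1 of 8, Antp, and none with an IDR peak within 500 bp of a TSS. The body of Antp, however, held 3 IDR peaks and 5 members. Segmentation genes had 1 of 23, the Hedgehog receptor gene ptc, whose member was found in replicate 1 alone at rank 2626.

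The bZIP list had 1 of 19 genes with a member as best call, Pdp1, against 8 with an IDR peak. Atf3 itself had an IDR peak at its promoter and 2 members in introns, at pooled ranks 4086 and 4470. The first lay beside an IDR peak and shared its replicate 2 match, of rank 1489, with that peak. Its ranks were 8665, 1489 and 2937, and those of the second were 4974, 21153 and 3770. Whether the tagged copy adds DNA at this locus is not given in the sources used here, and extra copies cannot be told apart from binding. The Fos gene kay had a member 21 bp upstream of a TSS with a signal of 79.0 and ranks of 2781, 5901 and 8977, with the nearest IDR summit 1074 bp away in an intron and an IDR peak at another of its promoters. Jra, the Jun gene, had an IDR peak at its promoter, of rank 1240, and no member. Of the JNK phosphatase gene puc, the promoter call had rank 5887, below the members, with a signal of 50.2. Several IDR peaks, however, lay in or near puc, the best of rank 835 at the promoter of lncRNA:CR44331. Another, of rank 2596, lay in coding sequence 533 bp from a puc TSS, just outside the promoter window. A member at rank 4990 lay inside the gene, at the promoter of lncRNA:CR44331, 202 bp from an IDR summit. The best promoter call of crc, the fly ATF4 gene, had rank 9824.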

How the data were processed

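Peak lists for the dm6 assembly were used: 1 relaxed list per replicate, 1 from the pooled replicates and the IDR list; the dm3 lists were not used. Column 7 is a signal value and column 9 a −log10 q value, both deposited by the authors, together with a summit position; signals were used only within a list. Members are pooled ranks 2897 to 5792, IDR peaks ranks 1 to 2896 and the next set ranks 5793 to 8688, with ties in file order. Which aligner, peak caller and IDR cut were used is not given in the sources used here; depth is unknown for every sample, because the lists hold no read counts. There were 0 unused per-sample columns.

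Genes came from Ensembl release 115, without pseudogenes and transposable elements (17896 genes, 23722 TSSs), and sequence from the RefSeq Release 6 genome. A summit within 500 bp of a TSS was a promoter summit; the others took the first class that applied among 5′ UTR, coding sequence, 3′ UTR, non-coding exon, intron and intergenic. A replicate match was the best-ranked call overlapping at least 50% of the shorter interval. Motifs were searched on both strands in 201 bp. Layers of each replicate's list were compared by a two-sided exact permutation test over 3 values each, with Benjamini-Hochberg adjustment over 4 measures; p-values measure only the spread between these 3 samples. Shares have 95% Wilson intervals. The 450 listed gene symbols gave 434 list genes: 9 matched no symbol and 7 named a gene already listed. Among the 9 were Tor and Dl, which are therefore missing from the insulin and Tor list and from the Notch list.

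The members, gene lists and motifs were chosen with earlier results of these data known. Named genes were those nearest the 15 members of highest signal, the 10 with the best worst replicate rank, 3 with the largest rank gap, 12 CRE members, up to 4 per list with a member and no IDR peak at the promoter (all where at most 9 are counted), Atf3, Jra, kay, crc and puc, and 6 with the most members in the body. The genes fz2, cnk, dos, rho, Su(H) and the other ribosomal protein genes were added after their values were seen. The overlap, location and motif steps were tested on simulated data, and the other steps were not. The tools were scipy 1.17.1, pandas 2.3.3, numpy 2.4.6 and matplotlib 3.10.9 under Python 3.11.15.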

Additional observations from a re-analysis of the deposited data

How the results depend on the processing

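The share of members found in all 3 lists was 70.1% with any overlap, 41.4% with summits within 100 bp, 23.6% and 6.66% in the first 10000 and about 5800 calls of each list, and 70.8% for the upper 2 of the 4 rank bins. With replicate calls that also match an IDR peak left out, an alternative chosen after seeing the data, it was 58.4%. Leaving out 1 replicate, 65.8% to 76.5% were found in both others. The promoter share was 34.8% and 54.7% with windows of 250 and 1000 bp, and with the same windows coding was 4.11% and 1.97%, introns 39.8% and 29.8%, and intergenic sequence 17.6% and 11.9%. For the upper 2 bins these 4 shares were 48.4%, 1.59%, 34.1% and 13.1%. Promoters of protein-coding genes alone held 40.9%, and the promoter share was 40.7% of members found in all 3 lists and 41.2% of those found in replicates 2 and 3, the last chosen after seeing the data. The CRE share was 0.863% and 2.28% with windows of 50 and 200 bp to either side, 1.01% of members found in all 3 lists and 0.944% of those found in replicates 2 and 3, again chosen afterwards. The DRE share was 1.73% and 4.94% with those windows. An IDR summit lay within 500 bp of 5.39% of members and within 2 kb of 20.4%, and within 1 kb for 12.6% of the upper 2 bins. Genes with a member as best promoter call numbered 743 for members found in all 3 lists and 721 for the upper 2 bins.

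In the replicate layers, leaving out 1 replicate gave differences of −21.3 to −13.0 points for promoters, 7.01 to 12.8 for coding sequence, −0.552 to −0.380 for CRE and −1.74 to −1.29 for DRE. Against the last layer the differences had the other sign for promoters (9.29), coding sequence (−6.41) and DRE (0.794) but not for CRE (−0.150); the cause was not tested. With the replicate as a block, added after seeing the data, the differences were −16.1, 9.45, −0.449 and −1.50 points, and the exact sign-flip p was 0.25 for each, the smallest 3 pairs can give. Depth is unknown, so weak calls and shallow sequencing cannot be told apart.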

Other observations

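Members were spread over gene bodies as well as promoters, and some genes held many. At least 3 member summits lay in the body of each of 140 protein-coding genes. A summit counted for every gene whose span held it, so genes that overlap or lie inside one another share counts. The most were in Ptp61F, a tyrosine phosphatase gene, with 11 members and 3 IDR peaks over 133 kb. Its span includes the member at the promoter of rho. The Dpp pathway factor gene shn had 8 members and 6 IDR peaks, and 7 members each lay in Svil, a supervillin gene, aop, px, a wing vein gene, and tara. Per length, aop held 31.4 and tara 20.2 members per 100 kb, against 2.16 per 100 kb over the 6 arms. Ptp61F held 8.29 per 100 kb and Svil 5.76, so length differed widely among these genes. The Wnt receptor gene fz2 held 6 members and 0 IDR peaks. These genes were chosen for their counts, so the densities are a description.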
